A study of Mus musculus with 14 samples.

Results

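Snhg6, Snhg8, Gas5 and Epb41l4aos are non-coding genes whose introns carry small nucleolar RNAs (snoRNAs). They were taken by their gene symbols from a table of 14531 gene entries measured in mouse hypothalamus, so the set is 4 of 14531 entries, and each symbol matched 1 entry. The mice were male C57BL/6N animals aged 10 weeks, and the labels give that strain as their genotype. For 3 days they received a diet rich in fat (HFD) or a control diet (NCD). In the Phosphoribotrap procedure, ribosomes that carry the phosphorylated form of ribosomal protein S6 are pulled down with an antibody, and the RNA that comes with them is sequenced. Because S6 becomes phosphorylated in activated cells, this immunoprecipitate (IP) is used as a readout of what those cells are translating, and the input is the RNA of the whole hypothalamus. The groups were 4 IP and 4 input libraries from HFD mice, and 3 IP and 3 input libraries from NCD mice. The labels give 4 IPs per condition, while NCD has 3 libraries in each fraction. Each IP was made from 8 pooled hypothalami, so a library stands for a pool and not for an animal. The p-values below measure the spread between these pooled libraries. IP and input libraries come from the same lysates, and the main fits of IP against input do not pair them. The table numbers the libraries of a group from 0, and libraries are named here by that index.

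A snoRNA host gene is transcribed and spliced like a messenger RNA precursor. The snoRNA is trimmed out of a removed intron and stays in the nucleolus, where snoRNAs with C and D boxes guide methylation of ribosomal RNA and snoRNAs with H and ACA boxes guide its pseudouridylation. The spliced exons reach the cytoplasm. Many host transcripts begin with a terminal oligopyrimidine (TOP) tract, a run of C and T at the first bases that they share with messenger RNAs of ribosomal proteins and elongation factors and through which mTOR signalling controls translation. Their reading frames are short, and in several of them, Gas5 among them, translation of such a frame leads to nonsense-mediated decay. Gas5 was named for its accumulation in growth-arrested cells.

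In the GENCODE M21 annotation of GRCm38, used for all positions, Gas5 lies on chromosome 1 from 161034422 to 161038539 on the plus strand, with 25 transcripts and 10 snoRNA entries inside its span. Snhg6 lies on chromosome 1 from 9941959 to 9944118 on the minus strand, with 5 transcripts and the C/D box snoRNA Snord87. Snhg8 lies on chromosome 3 from 123507552 to 123508404 on the minus strand, with 3 transcripts and the H/ACA snoRNA Snora24. None of these snoRNAs has an entry of its own in the expression table. The values below are per host gene and can include RNA that keeps an intron: 20 of the 25 Gas5 transcripts and 1 of the 3 Snhg8 transcripts are annotated as retained introns. The snoRNA in each host is what defines it, and 3 of them are printed from the genome of that annotation, with the letters of the C box core (TGATGA) and the D box (CTGA), or of the ACA box, in capitals.
Snord87 in Snhg6, chr1:9942463-9942549, minus strand: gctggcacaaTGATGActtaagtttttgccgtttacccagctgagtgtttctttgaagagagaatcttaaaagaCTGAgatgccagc
Snord47 in Gas5, chr1:161038082-161038158, plus strand: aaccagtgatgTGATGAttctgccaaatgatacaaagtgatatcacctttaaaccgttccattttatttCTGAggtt
Snora24 in Snhg8, chr3:123507937-123508066, minus strand: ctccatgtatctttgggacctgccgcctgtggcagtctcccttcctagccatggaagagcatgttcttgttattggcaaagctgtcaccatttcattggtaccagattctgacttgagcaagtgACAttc
TGATGA within the first 20 bases and CTGA within the last 15 bases, read on the snoRNA's own strand, were found in 8 of the 10 entries in Gas5. Both were found in 20.8% of the 1449 mouse snoRNA entries of 60 to 150 bases in the annotation. ACA at the place 3 bases from the end was found in 17.9% of them. The 8 Gas5 entries include overlapping entries both named Snord80, and Mir5117, which also has ACA at that place.

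The first bases of the hosts are shown because they hold both the pyrimidine run and the short reading frame. The RefSeq promoter windows of build GRCm38.p6 run from 250 bases before to 50 bases after the annotated start, and the longest run of C and T that lies within 10 bases of the start, read on the gene's strand only, is in capitals.
Snhg8, chr3:123508287-123508586, minus strand: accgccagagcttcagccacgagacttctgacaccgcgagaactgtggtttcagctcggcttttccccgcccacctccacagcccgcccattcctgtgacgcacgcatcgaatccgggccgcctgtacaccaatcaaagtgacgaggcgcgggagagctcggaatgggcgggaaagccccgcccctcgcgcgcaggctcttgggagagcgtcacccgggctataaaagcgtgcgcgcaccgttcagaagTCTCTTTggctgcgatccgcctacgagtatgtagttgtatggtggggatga
Gas5, chr1:161034916-161035215, plus strand: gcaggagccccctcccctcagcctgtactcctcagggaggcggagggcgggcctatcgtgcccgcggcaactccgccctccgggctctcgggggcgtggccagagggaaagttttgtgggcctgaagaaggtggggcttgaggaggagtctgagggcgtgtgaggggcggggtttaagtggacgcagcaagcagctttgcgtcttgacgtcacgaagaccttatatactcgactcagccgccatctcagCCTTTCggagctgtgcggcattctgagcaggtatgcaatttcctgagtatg
The run was 7 bases long in Snhg8. Of 32851 RefSeq promoter windows, 12.8% hold one at least that long anywhere within 10 bases of the start. In Gas5 the run was 6 bases long, and 21.02% of windows hold one at least that long. Gas5 also has an upstream RefSeq start, where the run was 3 bases long, and 79.1% of windows hold such a run. A run of these letters is a description of the sequence and not a mapped TOP tract. In the spliced GENCODE transcripts below, the first ATG through the stop codon of its frame is in capitals.
Gas5-224, first 116 bases: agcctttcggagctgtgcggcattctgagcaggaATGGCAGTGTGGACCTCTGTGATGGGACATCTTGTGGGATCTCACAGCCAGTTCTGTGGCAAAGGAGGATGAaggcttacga
Snhg6-203, first 213 bases: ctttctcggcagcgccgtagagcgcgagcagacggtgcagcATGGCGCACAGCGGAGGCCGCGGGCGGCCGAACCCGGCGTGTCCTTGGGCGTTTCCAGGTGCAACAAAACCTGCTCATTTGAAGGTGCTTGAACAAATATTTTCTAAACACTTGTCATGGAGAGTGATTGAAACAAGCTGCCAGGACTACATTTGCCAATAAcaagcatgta
Snhg8-203, first 40 bases: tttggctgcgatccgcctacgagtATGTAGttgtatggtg
The frame that opens at the first ATG held 23 codons before its stop in Gas5-224, a spliced transcript of 502 bases with 12 exons. It held 53 codons in Snhg6-203, of 473 bases, and 34 codons in Epb41l4aos-201, of 430 bases. In Snhg8-203, of 528 bases, the ATG was followed directly by a stop codon. Over all transcripts of each gene, the median length was 559 bases for Snhg6, 528 for Snhg8, 629 for Gas5 and 366.5 for Epb41l4aos.

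All 4 host genes were higher in the phospho-S6 IP than in the input, on both diets. Levels are in FPKM, fragments per kilobase of transcript and per unit of library depth, which allows genes of different length to be set side by side. Gas5 was the most abundant of the 4 in all 14 libraries and Snhg8 was next in all 14. Snhg6 was above Epb41l4aos in 11 libraries and below it in 3, so the order of the lower pair was not the same in every library.

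In IP libraries of HFD mice, Gas5 was at 6921, 2838, 2946 and 3148 FPKM, against 422.2, 435.6, 311.9 and 306.5 FPKM in the inputs of HFD mice. In IP libraries of NCD mice it was at 5870, 3196 and 3370 FPKM, against 385.9, 313.2 and 311.6 FPKM in the inputs of NCD mice. Every IP library was above every input library, and the index 0 IP library was the highest on either diet. The mean was 3964 ± 1976 FPKM in HFD IP libraries and 369.1 ± 69.4 FPKM in HFD inputs (SD, n = 4 each). On the control diet it was 4145 ± 1496 FPKM in IP libraries and 336.9 ± 42.4 FPKM in inputs (SD, n = 3 each). The lowest IP library stood 6.52 times above the highest input on HFD and 8.28 times above it on NCD.

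Snhg8 was at 473.2, 295.6, 224.3 and 250.2 FPKM in HFD IP libraries, against 21.6, 8.97, 11.1 and 8.71 FPKM in HFD inputs. It was at 363.1, 319.7 and 296.7 FPKM in NCD IP libraries, against 14.6, 9.70 and 13.2 FPKM in NCD inputs. The gap between fractions was wide on both diets: the lowest IP library was 10.4 times the highest input on HFD and 20.4 times on NCD. Snhg8 had the smallest spread of the 4 among NCD IP libraries, with a mean of 326.5 ± 33.7 FPKM (SD, n = 3). The mean in HFD IP libraries was 310.8 ± 112.2 FPKM (SD, n = 4).

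Snhg6 was at 149.3, 101.2, 85.7 and 55.9 FPKM in HFD IP libraries, against 2.39, 1.62, 1.92 and 3.36 FPKM in HFD inputs. In NCD IP libraries it was at 133.0, 51.7 and 6.15 FPKM, against 0.703, 4.54 and 2.57 FPKM in NCD inputs. The index 2 IP library of NCD mice was the low one: it lay 1.35 times above the highest NCD input, where the lowest HFD IP library lay 16.6 times above the highest HFD input. The NCD IP mean of 63.6 ± 64.2 FPKM (SD, n = 3) therefore had a standard deviation as large as the mean. Exons of Mcmdc2, a gene with an MCM domain on the opposite strand, overlap Snhg6 by 127 bases. The library kit does not mark strand, so reads of both genes cannot be told apart there.

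Epb41l4aos lies on chromosome 18 from 33794892 to 33795986 on the plus strand, with 2 transcripts and 1 snoRNA entry, Gm23639. It was at 164.9, 22.1, 13.3 and 15.9 FPKM in HFD IP libraries, against 2.40, 0, 0.382 and 0.664 FPKM in HFD inputs. In NCD IP libraries it was at 85.6, 19.7 and 14.6 FPKM, against 0.359, 0.494 and 0 FPKM in NCD inputs. It was detected in all 7 IP libraries and listed at 0 in 2 of the 7 inputs, and the index 0 IP library was again far above the others on either diet. The lowest IP library stood 5.54 times above the highest input on HFD and 29.5 times above it on NCD. The name marks it as a transcript of the strand opposite Epb41l4a.

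**Figure D1:**
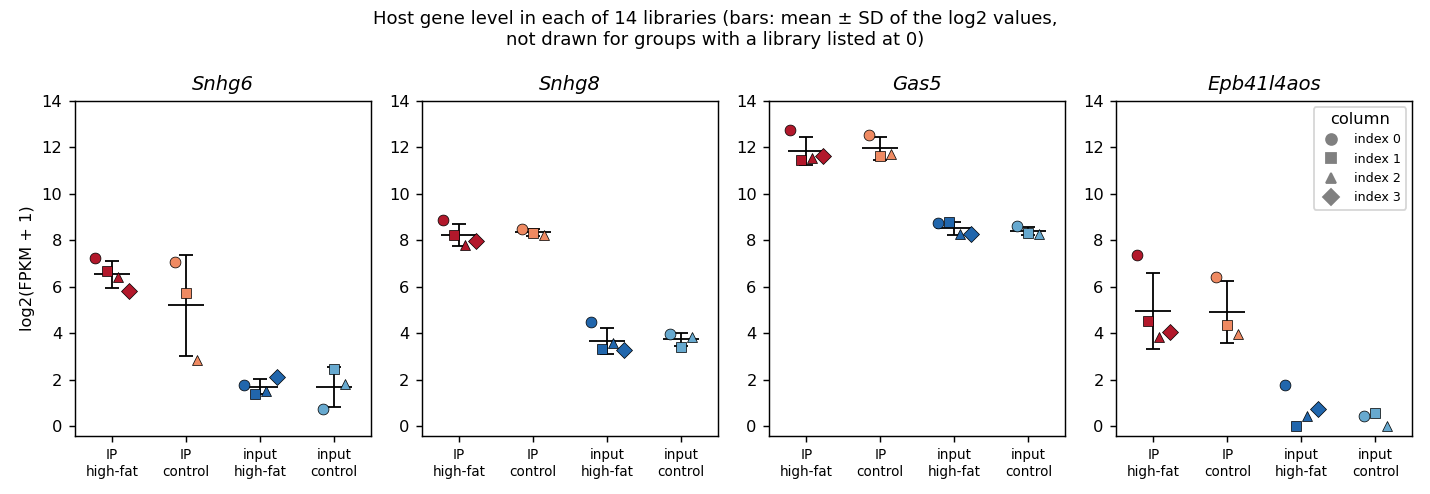
Level of Snhg6, Snhg8, Gas5 and Epb41l4aos as log2(FPKM + 1) in each of the 14 libraries, by fraction and diet. Points are libraries, with the marker giving the column index, and bars are the mean ± SD of the log2 values, left out where a library is listed at 0. Each IP point lies above every input point of the same gene and diet, and the closest approach is Snhg6 in NCD mice, at 6.15 FPKM in the index 2 IP library against 4.54 FPKM in the highest input.

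Tested with limma on log2(FPKM + 1) over all 14 libraries, IP against input is given as a log2 difference, positive where the IP was higher. Averaged over both diets, it was 4.58 ± 0.21 for Snhg8 (SE, Benjamini-Hochberg adjusted p = 4.7e-10), 4.40 ± 0.54 for Epb41l4aos (adjusted p = 1.03e-05), 4.18 ± 0.50 for Snhg6 (adjusted p = 8.76e-06) and 3.45 ± 0.21 for Gas5 (adjusted p = 6.04e-09). The 4 of 4 host genes called higher stand against 23.4% of the 12478 genes tested, with 20.5% called lower and 43.9% called in either direction. Epb41l4aos passed the filter of a mean of at least 1 FPKM through its IP libraries alone, so its call is no separate support, while the other 3 also had inputs above 1 FPKM on average. For 4 of 4 host genes every IP library lay above every input library within either diet, against 14.6% of all genes tested. Another 10.2% lay wholly lower. Epb41l4aos is in this count as well and adds no separate support to it. The hosts were chosen with earlier results of these data known. Neither these counts nor those for each diet below are therefore a test of the set. The added pseudocount of 1 FPKM holds back the difference of genes with low inputs, most of all Epb41l4aos, whose log2 difference was 6.18 with a pseudocount of 0.1.

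On HFD alone, the log2 difference was 4.84 ± 0.66 for Snhg6, 4.55 ± 0.28 for Snhg8, 4.21 ± 0.71 for Epb41l4aos and 3.33 ± 0.27 for Gas5 (SE). All 4 passed, with limma adjusted p between 2.34e-08 and 0.000324, against 19% of all genes called higher on this diet and 33.6% in either direction. On NCD alone, it was 4.61 ± 0.32 for Snhg8, 4.58 ± 0.82 for Epb41l4aos, 3.57 ± 0.32 for Gas5 and 3.52 ± 0.76 for Snhg6 (SE). All 4 passed here too, with limma adjusted p between 1.62e-07 and 0.0033, against 15.7% of all genes called higher and 26.6% in either direction. Separated groups, with every IP library above every input, were seen in 22.1% of all genes on HFD and in 21.8% on NCD.

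The Snhg6 value on NCD rests on single libraries. It was 4.70 without the index 2 IP library and 2.59 without the index 0 IP library, and in a fit to the NCD libraries alone the same difference of 3.52 had a limma adjusted p of 0.0576. With both index 0 IP libraries left out, the log2 difference over both diets was 4.43 for Snhg8, 3.62 for Epb41l4aos, 3.60 for Snhg6 and 3.16 for Gas5, and all 4 passed.

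Among all 12478 genes ranked by the size of the difference over both diets, Snhg8 stood at place 9, Epb41l4aos at 11, Snhg6 at 14 and Gas5 at 73. Within the 670 tested genes annotated as long non-coding (lincRNA, processed transcript or antisense), they held places 1, 2, 3 and 9 in the same order. As the hosts were chosen with earlier results of these data known, these places describe them and are not a test. Short transcripts were in general higher in the IP: the 1977 genes with a median transcript length over 300 and up to 700 bases had a median log2 difference of 0.44, and 39.6% of them were called higher. The 917 genes over 4000 bases had a median of -0.47. All 4 hosts fall in the 300 to 700 base class, where 5 genes had a larger difference than Snhg8, 7 than Epb41l4aos, 9 than Snhg6 and 53 than Gas5. The part of transcript length in these values beyond that was not tested.

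**Figure D2:**
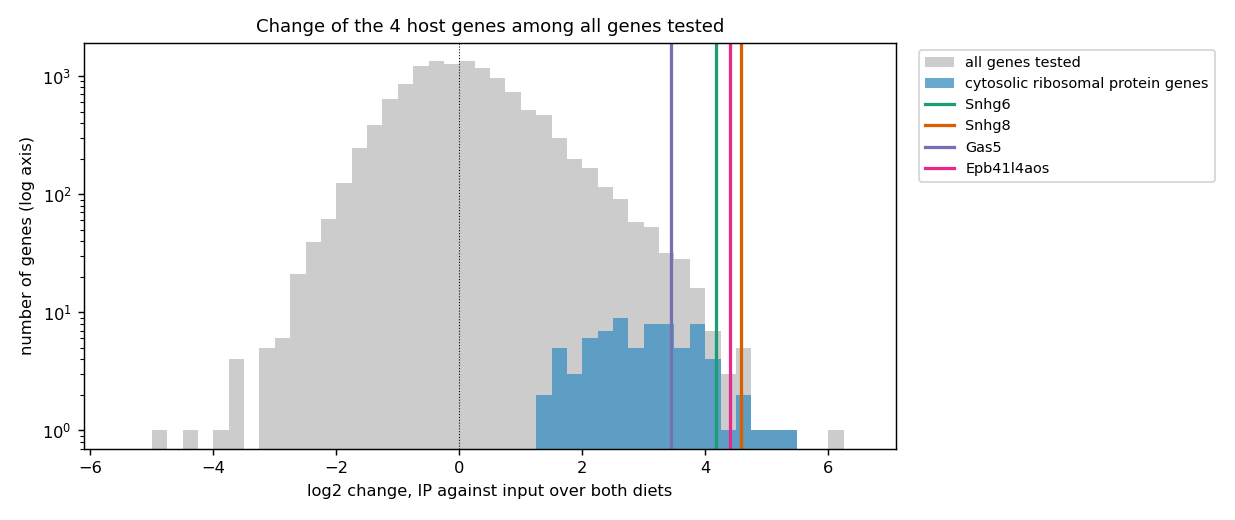
Number of genes (log axis) by log2 difference between IP and input over both diets, for all 12478 genes tested and for the 76 cytosolic ribosomal protein genes tested. Vertical lines mark the 4 host genes, at 3.45 for Gas5, 4.18 for Snhg6, 4.40 for Epb41l4aos and 4.58 for Snhg8, in the upper tail of all genes and within the range of the ribosomal protein genes.

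The 4 hosts were compared with each other through the difference of their log2 values within each library, in 6 pairs, by a two-sided exact permutation test of the fraction labels within diet. The difference between IP and input was larger for Snhg8 than for Gas5 by 1.13 log2 units (exact p = 0.00143, the smallest that 1400 arrangements can give; adjusted over 6 pairs p = 0.00857). It was smaller for Gas5 than for Epb41l4aos, with a difference of -0.95, which did not pass after adjustment (exact p = 0.0371, adjusted p = 0.111). No other pair passed, with adjusted p from 0.546 to 0.726. The permutation took IP and input libraries as unpaired. An exchange of labels within columns of the same index was not run, so how pairing would alter these p-values was not tested. The differences among the other 3 hosts were -0.40 for Snhg6 minus Snhg8, -0.22 for Snhg6 minus Epb41l4aos and 0.18 for Snhg8 minus Epb41l4aos, which was -1.49 with a pseudocount of 0.1.

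Diet was then compared within each fraction, HFD against NCD. No host gene passed in either fraction, and no gene of the whole table did: 0% of 12478 genes were called in the IP and 0% in the input by limma fitted within the fraction. With all 14 libraries in 1 fit, 75 genes were called for diet in the IP. At an unadjusted p below 0.05 there were 713 genes in the IP (5.71%) and 714 in the input (5.72%). In the IP, the log2 difference was 1.34 ± 0.77 for Snhg6 (SE, limma adjusted p = 0.815, 95% interval -0.35 to 3.02). For Snhg8 it was -0.13 ± 0.29 (adjusted p = 0.954, interval -0.76 to 0.51) and for Gas5 -0.12 ± 0.38 (adjusted p = 0.968, interval -0.94 to 0.71). For Epb41l4aos it was 0.03 ± 0.82 (adjusted p = 0.999, interval -1.77 to 1.83). The intervals of Snhg8 and Gas5 end below a doubling in either direction, while those of Snhg6 and Epb41l4aos do not.

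The Snhg6 difference of 1.34 was 0.15 without the index 2 IP library of NCD mice and 2.26 without the index 0 IP library of NCD mice. In the input, the log2 difference between diets was 0.01 ± 0.36 for Snhg6, -0.06 ± 0.28 for Snhg8, 0.12 ± 0.15 for Gas5 and 0.40 ± 0.37 for Epb41l4aos (SE). In neither fraction did the HFD and NCD libraries of a host gene separate, where 3.21% of all genes lay wholly higher and 3.13% wholly lower on HFD in the IP, and 3.05% and 3.76% in the input. The diet effect in the IP minus that in the input was 1.32 ± 1.01 for Snhg6, -0.06 ± 0.42 for Snhg8, -0.24 ± 0.42 for Gas5 and -0.37 ± 1.08 for Epb41l4aos (SE). None of these passed, with limma adjusted p from 0.83 to 0.99, and 0.00801% of all genes did. The Snhg6 value ran from 0.14 without the index 2 IP library of NCD mice to 2.25 without their index 0 IP library.

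**Figure D3:**
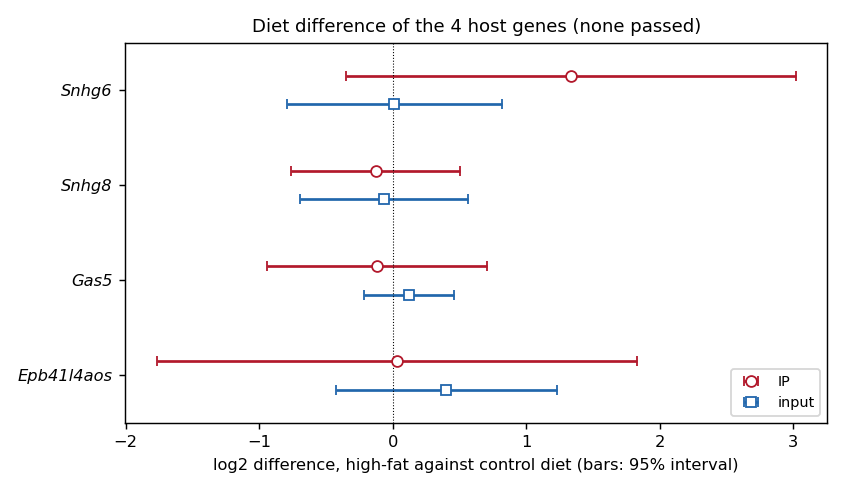
Log2 difference between HFD and NCD for the 4 host genes in the IP (circles) and in the input (squares), with 95% intervals from limma. Every interval includes 0, and the widest are those of Epb41l4aos and Snhg6 in the IP.

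The authors' deposited table holds the IP value divided by the input value of the same index. In the authors' deposited table, this ratio ran from 6.52 to 16.4 for Gas5 in HFD pairs and from 10.2 to 15.2 in NCD pairs. For Snhg8 the authors' deposited table has ratios from 20.2 to 33.0 in HFD pairs and from 22.4 to 33.0 in NCD pairs. Snhg6 varied most in the authors' deposited table, with ratios from 16.6 to 62.6 in HFD pairs and from 2.39 to 189.1 in NCD pairs. For Epb41l4aos the authors' deposited table gives no ratio for the pair of either diet whose input is listed at 0, and the others ran from 23.9 to 68.5 on HFD and from 39.9 to 238.4 on NCD. The p-values for diet in the authors' deposited table were 0.765 for Snhg6, 0.861 for Snhg8, 0.609 for Gas5 and 0.507 for Epb41l4aos. The log2 fold changes of HFD over NCD in the authors' deposited table were -0.54 for Snhg6, -0.04 for Snhg8, -0.18 for Gas5 and -1.71 for Epb41l4aos, so that of Snhg6 has the opposite sign to the limma difference of the diet effects. These fold changes equal the log2 quotient of the mean ratios of the diets, while limma compares means of log2 values. For Snhg6 the NCD ratio of 189.1 was that of index 0, and the others were 11.4 and 2.39. For Epb41l4aos the NCD ratio of 238.4 was also that of index 0, beside 39.9.

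The other non-coding snoRNA hosts were mixed. Of 22 listed symbols, 13 were measured and tested, of which 7 rose in the IP, 1 fell and 5 stayed short of the threshold. The shares over all genes, for these and the lists that follow, were the 23.4% higher and 20.5% lower given above. Their median log2 difference was 1.49, where that over all genes was 0.00. The largest were 2410006H16Rik at 3.23 ± 0.28, Snhg12 at 2.95 ± 0.34, Zfas1 at 2.32 ± 0.21 and Snhg5 at 2.21 ± 0.32 (SE), all below the 4 hosts above in the average over both diets. On NCD alone, 2410006H16Rik was at 3.60 ± 0.43, above the 3.57 of Gas5 and the 3.52 of Snhg6 by less than the standard error. 2410006H16Rik had a mean of 33.3 ± 17.8 FPKM in HFD IP libraries against 3.51 ± 1.47 FPKM in HFD inputs (SD, n = 4 each), and 41.6 ± 11.9 FPKM in NCD IP libraries against 2.49 ± 0.945 FPKM in NCD inputs (SD, n = 3 each). Zfas1, a host of C/D box snoRNAs, had 76.1 ± 23.4 FPKM in HFD IP libraries against 16.5 ± 4.00 FPKM in HFD inputs (SD, n = 4 each).

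Snhg14, the long brain transcript of the imprinted Prader-Willi region that carries clustered snoRNAs, was higher in the IP by 2.19 ± 0.18. Snhg18 was higher by 1.49 ± 0.33 and Snhg15 by 1.79 ± 0.66 (SE, limma adjusted p = 0.039), a call that Snhg15 lost without the index 0 IP libraries (adjusted p = 0.117). It also lost the call in 10 of the 14 fits without 1 library, all but those without HFD IP index 2 or 3, NCD IP index 2 or HFD input index 1. Snhg11, a host with strong expression in neurons, was the one that fell, with -1.89 ± 0.20 (limma adjusted p = 2.22e-06). Its mean was 72.8 ± 28.1 FPKM in HFD IP libraries against 319.9 ± 34.2 FPKM in HFD inputs (SD, n = 4 each), and 104.9 ± 33.0 FPKM in NCD IP libraries against 315.8 ± 96.0 FPKM in NCD inputs (SD, n = 3 each). Snhg1 at 0.36, Snhg20 at 0.34, Dancr at 0.20, Snhg17 at -0.07 and Snhg10 at -0.71 did not pass, and the sign for Snhg1 and Snhg17 turned without the index 0 IP libraries. Diet changed none of these 13 by the test in the IP. The largest difference was that of Snhg5, at 119.0 ± 30.6 FPKM in HFD IP libraries (SD, n = 4) against 38.7 ± 31.1 FPKM in NCD IP libraries (SD, n = 3), a log2 difference of 1.97 ± 0.54 (SE, limma adjusted p = 0.813).

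**Figure D4:**
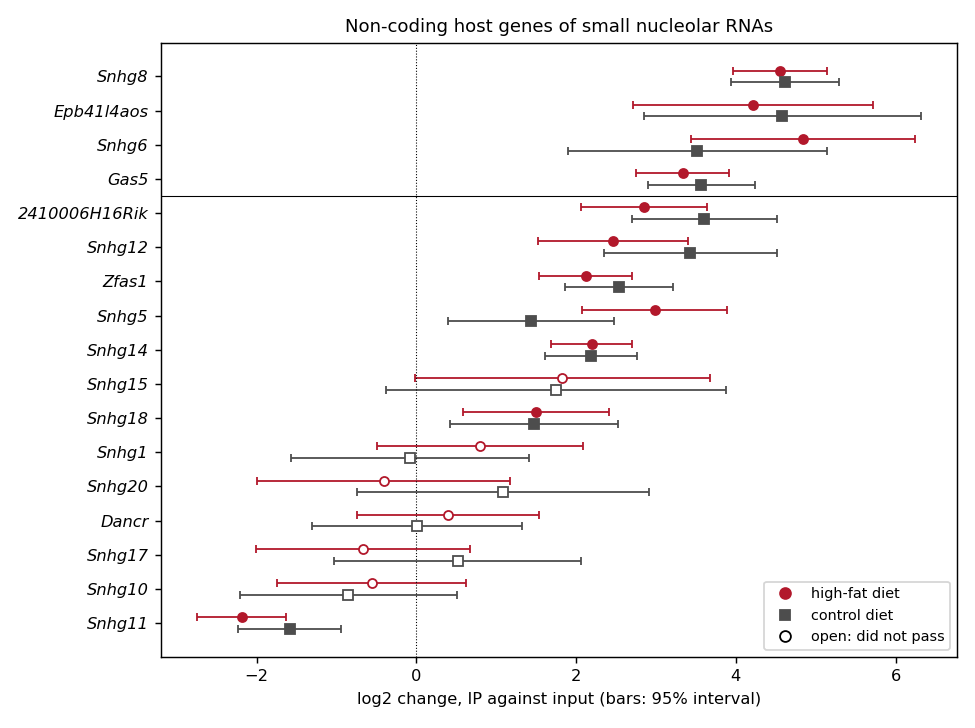
Log2 difference between IP and input on HFD (circles) and NCD (squares) for the 4 host genes, above the line, and for 13 other non-coding snoRNA hosts, with 95% intervals. Filled markers passed and open markers did not. Snhg8, Epb41l4aos, Snhg6 and Gas5 lie between 3.33 and 4.84, and Snhg11 lies below 0 on both diets.

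Protein-coding genes that carry snoRNAs in their introns were higher in the IP in 32 of 39 tested, with 3 lower and a median log2 difference of 2.03. Over all genes, 23.4% were higher and 20.5% lower. Most of these protein-coding hosts encode ribosomal proteins. Rps20 was at 3.75 ± 0.20, Rpl13a at 3.23 ± 0.19 and Rps3 at 2.47 ± 0.14 (SE). The 3 that fell were Nop58 at -0.84 and Nop56 at -0.66, which encode core proteins of C/D box snoRNA particles, and Chd4 at -0.82, a chromatin remodeller. Rcc1, the nucleotide exchange factor of the GTPase Ran, was higher by 3.85 ± 0.25.

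All 76 tested cytosolic ribosomal protein genes were higher in the IP, with a median log2 difference of 3.01 and a range from 1.36 to 5.37, so the 4 hosts lie within that range. Of 15 tested non-ribosomal genes known for TOP tracts 14 rose (median 1.62). Over all genes 23.4% were called higher. Among the 14 were Eef1a1 at 2.76 ± 0.16, Eif3h at 2.18 ± 0.18, Eef1b2 at 2.04 ± 0.16 and Eef1g at 1.73 ± 0.14 (SE). These encode elongation factor and initiation factor subunits. This list overlaps the protein-coding hosts through Eef1b2 and others.

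Genes of the machinery around snoRNAs were mixed. Among 8 core proteins of snoRNA particles the median log2 difference was 0.28, with 3 that rose, 2 that fell and 3 short of the threshold, and the share that fell is near the 20.5% of all genes. Nop58 at -0.41 and Nop56 at -0.28 did not pass on HFD alone and passed on NCD alone, at -1.26 and -1.03, and the difference between diets was not called for either. Nop10 at 1.81 ± 0.27 and Nhp2 at 1.73 ± 0.57, of the H/ACA particle, and Snu13 at 1.07 ± 0.26, of the C/D particle, were higher, and Nop58 at -0.84 ± 0.25 was lower (SE). Of 8 assembly factors tested, Znhit3 was higher at 1.00 ± 0.37, Nufip1 was lower at -0.74 ± 0.26 and 6 were short of the threshold (median -0.42), shares below those of all genes. The count of higher members was 0 in 10 of the 14 fits without 1 library. The 12 factors of nonsense-mediated decay tested had a median of -0.50, and 3 fell and 9 were short of the threshold, a share near the 20.5% of all genes called lower. On HFD alone 2 were higher and 4 lower, against 19% and 14.6% of all genes. On NCD alone 2 were lower, against 10.8% of all genes. Over both diets, Smg1, the kinase of the pathway, was lower at -1.62 ± 0.41 (SE). Also lower were Upf3b at -1.37 ± 0.22 and Upf2 at -1.10 ± 0.24 (SE). Smg1 libraries overlapped on NCD, at 3.67 to 43.2 FPKM in the IP (median 37.9) and 29.5 to 38.3 FPKM in inputs. On HFD they did not, at 2.84 to 7.13 FPKM in the IP and 20.7 to 32.5 FPKM in inputs.

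Long non-coding RNAs known for staying in the nucleus went the other way in most cases, with 5 of 8 tested lower and 2 higher (median -1.65), where 20.5% of all genes were lower and 23.4% higher. Malat1 was at -4.83 ± 0.33, Miat at -2.82 ± 0.28 and Peg13 at 2.31 ± 0.14 (SE), and Snhg14, which is on this list too, was among the higher. Zbtb37, a zinc finger gene that starts 427 bases from the annotated Gas5 start on the opposite strand with no shared exon, was lower in the IP by -1.36 ± 0.32 (SE, limma adjusted p = 0.00305). It had 0.982 ± 0.266 FPKM in HFD IP libraries against 4.39 ± 0.512 FPKM in HFD inputs (SD, n = 4 each). On NCD the groups overlapped, at 0.139 to 5.45 FPKM in IP libraries against 4.31 to 5.45 FPKM in inputs (n = 3 each).

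The genes with the profile most like each host over the 14 libraries were mostly ribosomal protein genes. Likeness was the mean absolute difference of log2(FPKM + 1) between profiles centred on their own means, where a small value means a similar course, and all genes share the same libraries. The step between IP and input is part of each profile, so likeness is not separate from the differences given above. For Snhg8 the 5 nearest were Rps29 at 0.182, Rps24 at 0.247, Rps14 at 0.277, Rps21 at 0.339 and Rps19 at 0.339, where the median over all genes was 2.29. For Gas5 they included the processed pseudogene Gm15772 at 0.148, Rpl26 at 0.153, Rps18 at 0.160 and Rpl37 at 0.177, where the median was 1.73. RefSeq lists Rpl26 as a synonym for Gm15772, so how reads of the pair were shared out is uncertain.

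For Epb41l4aos the nearest were Rpl35 at 0.503, the pseudogene Rpl38-ps2 at 0.513, Rpl35a at 0.518, Rpl38 at 0.531 and Rps24 at 0.559, where the median was 2.204. For Snhg6 they were Rcc1 at 0.572, Mtln at 0.635, Rps29 at 0.660, Rpl29 at 0.721 and Rps28 at 0.729, where the median was 2.30. Mtln encodes a small mitochondrial protein. Of these 20 nearest places, 16 were held by genes on the cytosolic ribosomal protein list. The hosts were less near to each other than to these genes. Snhg8 and Gas5 differed by 0.572, Gas5 and Epb41l4aos by 0.638 and Snhg8 and Epb41l4aos by 0.652. Snhg6 differed from Snhg8 by 0.757, from Epb41l4aos by 0.817 and from Gas5 by 0.886. Ranked among all genes by nearness, the other hosts held places 10 to 59 for Snhg6 and 45 to 112 for Snhg8. They held places 27 to 104 for Epb41l4aos and 271 to 760 for Gas5.

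**Figure D5:**
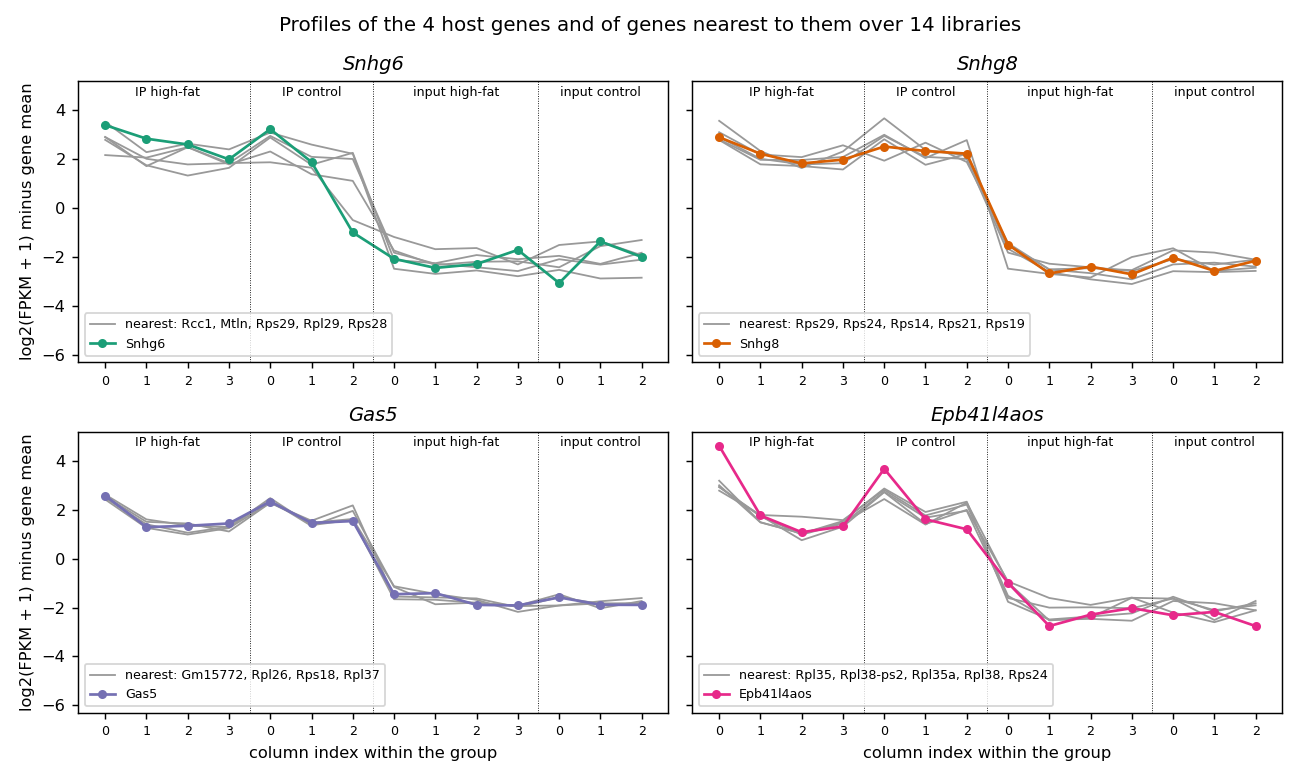
Centred log2(FPKM + 1) of each host gene (coloured) and of its nearest genes (grey; 4 for Gas5 and 5 for each other host) in the 14 libraries, ordered by group and column index. The profiles step down between IP and input in all panels, Gas5 lies closest to its neighbours, and Snhg6 leaves them in the index 2 IP library of NCD mice.

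The IP libraries differed from the inputs in other ways, whose part in the host gene values was not tested. The share of summed FPKM from the mitochondrial genome was 2.66 to 15.6% in IP libraries and 23.5 to 39.1% in inputs, and 0.771 to 10.9% of entries were listed at 0 in IP libraries against 0.282 to 0.957% in inputs. Both were highest, among IP libraries, in the index 0 library of each diet, the libraries in which all 4 hosts were also highest. Of 18 hypothalamic marker genes 16 were measured and 14 tested, of which 7 were higher in the IP and 7 did not pass. Their summed levels were 368.9 to 650.3 FPKM in IP libraries and 171.5 to 245.0 FPKM in inputs. Listed at 0 in some library were 5 of the 16 in the HFD IP and 7 in the NCD IP. In HFD inputs it was 1, and in NCD inputs 0. Of 7 thalamic markers 5 were higher and 2 did not pass. They summed to 1793 to 2802 FPKM in IP libraries and 498.1 to 584.2 FPKM in inputs. Of 9 neuronal markers tested 7 were higher in the IP, of 9 oligodendrocyte markers 7 were lower, and of 8 astrocyte markers 7 were lower and 1 was higher, where 23.4% of all genes were higher and 20.5% lower. Of 7 microglia markers 1 was higher and 6 did not pass. Of 7 choroid plexus markers 6 were higher in the IP, with summed levels of 260.4 to 1417 FPKM in IP libraries and 21.9 to 117.8 FPKM in inputs. Of 5 blood markers 4 were higher, with 146.6 to 718.1 FPKM in IP libraries and 11.6 to 27.3 FPKM in inputs. In such bulk samples, a larger number of captured cells of a type and more RNA per cell cannot be told apart.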

How the data were processed

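RNA of phospho-S6 IP and whole-hypothalamus input was amplified with the Ovation RNA-Seq V2 kit, from poly(T) as well as random primers, and made into libraries with Nextera XT, per the labels' protocols. The tools named are Cuffdiff, Cufflinks 2.2.1, StringTie 1.3.4d and HISAT2 2.1.0, and the build is GRCm38.p6, per the submitters' processing notes. The deposited table gives normalized FPKM for each gene and library, per the file headers. The authors also deposited the ratio of IP to input FPKM and, for HFD against NCD, a p-value and a log2 fold change of unstated test. Within 0.001, 96371 of 96385 ratios equal the quotient of the FPKM columns of the same index. FPKM hold no counts here, so the depth behind each value is unknown and no counting intervals are given.

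From these values, log2(FPKM + 1) was fitted with limma 3.58.1 in R 4.3.3 (trended empirical Bayes, two-sided, 4 group means over 14 libraries, or within a fraction for diet), with Benjamini-Hochberg adjustment over 12478 genes of mean FPKM of at least 1 and a threshold of 0.05. Where a symbol had several entries, the one with the highest mean was kept. All 4 hosts passed the filter. The columns carry an index from 0 that was not matched to the labels' replicate numbers. limma was tested on simulated data. The simulated libraries had independent normal noise, with no outlying libraries and no shared lysates. Python 3.11.15, numpy 2.4.6, pandas 2.3.3 and scipy 1.17.1 were used for the other steps. Alternatives were another pseudocount and filter, quantile and median-ratio scaling, array weights, a replicate block, narrower or wider fits and leaving out libraries. Genes named were the 4 hosts, every measured other non-coding host, up to 4 genes of smallest p per list, the 5 genes of nearest profile per host and annotated neighbours. The 4 hosts and the lists were chosen with earlier results of these data known. Other genes named as examples (Rcc1 and the protein-coding hosts and list genes that fell) were chosen by that rule or after their values were seen. Some genes that this rule names are not reported here.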

Additional observations from a re-analysis of the deposited data

Results flagged for a closer look

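Dixon's test was run on FPKM, without a log, in 34 groups of 4 libraries. These were the 4 host genes and 13 other non-coding hosts, each in HFD IP libraries and in HFD inputs. In 5 groups a library stood far from the other 3. Chance flags about 1 in 20 where groups are independent and values normally spread. The groups here share libraries, so that rate is no measure for the 5. In the HFD IP library of index 0, Gas5 was at 6921 FPKM, Epb41l4aos at 164.9 FPKM, Snhg12 at 233.2 FPKM and Snhg17 at 4.01 FPKM. In the HFD IP library of index 3, Snhg10 was at 7.06 FPKM.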

How the results depend on the processing

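The call of higher in the IP over both diets held for all 4 hosts in each of the 8 other settings. It also held in each of the 14 fits without 1 library, and it held on HFD too. Epb41l4aos passed the filter through its IP libraries alone. With a filter of at least 5 FPKM, so did Snhg6. Their held calls under those filters are therefore no separate support. On NCD it held for all but Snhg6 in the fit to that diet alone, at 3.52 with an adjusted p of 0.0576, where 2032 genes were called. Without both index 0 IP libraries, 5007 genes were called on NCD and 12 for the difference of the diet effects, and the value of Snhg1 was -0.030, that of Snhg17 0.14 and the IP diet difference of Epb41l4aos -0.017.

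With array weights, 1 gene was called for diet in the IP and 0 for the difference of the diet effects, Epb41l4aos was at -0.085 for diet in the IP and Snhg8 at 0.0077 for the difference of the diet effects. Quantile normalization put Snhg17 at 0.29 and Snhg6 at -0.022 for diet in the input, and 45.1% of calls for IP against input were then higher, against 53.4% in the values reported. Diet in the IP gave 75 calls when all 14 libraries shared 1 fit. A pseudocount of 0.1 gave 2 differing pairs of hosts, and put Snhg8 minus Epb41l4aos at -1.49. The causes of these shifts were not tested.

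Leaving out 1 library at a time gave 2150 to 3989 calls on NCD, 0 to 1 for diet in the input, 1 to 128 for the difference of the diet effects and 1 to 3 differing pairs. Values ranged from -0.43 to 0.41 for Snhg17, -0.22 to 0.67 for Snhg20 and -0.0090 to 0.52 for Dancr over both diets. For diet in the IP they ranged from -0.35 to 0.0077 for Snhg8, -0.42 to 0.16 for Gas5 and -0.77 to 0.79 for Epb41l4aos. For diet in the input they ranged from -0.45 to 0.40 for Snhg6 and -0.34 to 0.066 for Snhg8. For the difference of the diet effects they ranged from -0.29 to 0.21 for Snhg8, -0.54 to 0.043 for Gas5 and -1.18 to 0.39 for Epb41l4aos. The IP difference of Snhg6 minus Snhg8 ranged from -0.83 to 0.16, that of Snhg6 minus Epb41l4aos from -0.49 to 0.13 and that of Snhg8 minus Epb41l4aos from -0.023 to 0.52.

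With the replicate block, which pairs IP and input columns of the same index, 5170 genes were called over both diets, and no call on a host gene changed. The pairs of hosts were not compared with that block. Deviations of the paired columns correlated between -0.00378 and 0.0580, and 6 of 7 IP libraries correlated best with their own index. The authors' ratios also divide columns of the same index. The main fits of IP against input and the exact permutation test still took the libraries as unpaired. As the table gives no counts, what depth limits cannot be stated.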
